A study of Mus musculus with 6 samples.

Results

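Genes of the cell cycle and of DNA replication were followed in mouse fetuses lacking the transcription factor gene Emx2 and in wild-type fetuses, in the surface epithelium that gives rise to the gonad. The 40 genes were chosen by name and ordered by the phase in which they act, and every probe set annotated with exactly 1 of these symbols was taken. That gave 91 of the array's 45101 probe sets, which name 39 of its 18194 genes with a single symbol. The expression of Ccnb1 was not analysed here. The KO pools came from fetuses homozygous for the Emx2 mutation (−/−) and the wild-type pools from +/+ fetuses, all at E10.5. Each pool mixed epithelium of 3 fetuses, found in sections by staining for GATA4 and cut out by laser, and there were 3 pools and 3 arrays per genotype. The labels give neither the strain nor the design of the mutation, and do not say whether pools shared a litter. The spread between pools is therefore all that the p-values measure.

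A cell enters the cycle when cyclin D with Cdk4 or Cdk6 phosphorylates the retinoblastoma protein and frees E2F transcription factors, which switch on cyclin E and the genes of DNA synthesis. Origins of replication are licensed when Cdc6 and Cdt1 load the Mcm2-7 helicase, and cyclin A and B with Cdk1 then drive the cell into mitosis. Genes of replication are largely E2F targets, whereas genes of G2 and mitosis are switched on later through CHR elements and CCAAT boxes in their promoters. In the coelomic epithelium of the gonad, cell division supplies somatic precursor cells to the tissue beneath. The arrays measure mRNA in bulk tissue, in which fewer cycling cells and less RNA per cell cannot be told apart, and much of cell cycle control acts on proteins.

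The arrays were brought to a common level, and probe sets were compared with limma. Values are scaled intensities, fold changes are on the log2 scale with KO minus wild-type, and "called" means an adjusted p under 0.05 over all 27022 probe sets tested. Emx2 itself read 1678, 1479.6 and 1746 in the KO pools, against 1302, 2120.4 and 1727 in the wild-type pools. The sources used here do not give where its only probe set lies relative to the deleted part, so its signal does not check the labels. Xist, the RNA of the inactive X chromosome, ranged from 9321 to 9888 in the KO pools and from 13.3 to 69.9 in the wild-type pools, so genotype and sex of the pools cannot be told apart. Of the 39 genes, 0 lie on the X and 0 on the Y chromosome. Of the defining markers of gonadal epithelium, Gata4, Wt1, Lhx9 and Nr5a1 were bright enough to be tested and Msln was not. Nr5a1, a nuclear receptor of the gonad, itself fell in the KO pools by limma, with log2 fold change −1.22, SE 0.15, adjusted p = 0.000492.

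Expression of the cell cycle genes was close to level between KO and wild-type epithelium, with a small rise of the G1 kinase gene Cdk6 and a small fall of the mitotic checkpoint gene Bub1b. Of the 91 probe sets, 80 naming 38 genes were bright enough to be tested and 2 of them (2.5%) were called, 1 higher and 1 lower. Of all tested probe sets 4.68% were called, 2.75% higher and 1.93% lower. The lower share among cell cycle probe sets rests on 2 calls, and the difference was not tested. Counted by gene at the brightest tested probe set, 2 of 38 (5.26%) were called, against 5.41% of all genes, 2.93% higher and 2.48% lower. No cell cycle probe set was called with a change of 2-fold or more, where 2.06% of all tested were. Without adjustment, 11 of the 80 had p under 0.05 (13.8%), against 17.3% of all. The groups did not overlap in 15 of the 80 (18.8%), against 22.0% of all.

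Taking for each gene its brightest tested probe set, log2 fold changes of the 38 genes ran from −0.65 to 0.49 with a median of −0.07. With the values as deposited this median was 0.03, while that of all tested probe sets moved to 0.10, against 0.01 as scaled. Rescaling shifts all log2 values of an array alike, so the difference between the cell cycle genes and all probe sets stays at −0.07. With quantile normalization, which can change this difference, it was −0.01. As scaled in the main fit, the median over all 12315 genes at their brightest probe set was −0.01. Of the 24 cell cycle genes with 2 or more tested probe sets, 15 had probe sets that disagreed in sign. The 95% interval of the change lay within 0.5 on either side of 0, a change of less than 1.41-fold, for 25 of the 38 genes (65.8%). Of the 8536 genes at least as bright as the dimmest of these, 63.2% had such an interval. Beyond that lower limit the sets were not matched in brightness. The median SE was 0.109 for the 38 genes and 0.135 for the 8536. The plot of changes by gene orders these values by phase.

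**Figure D1:**
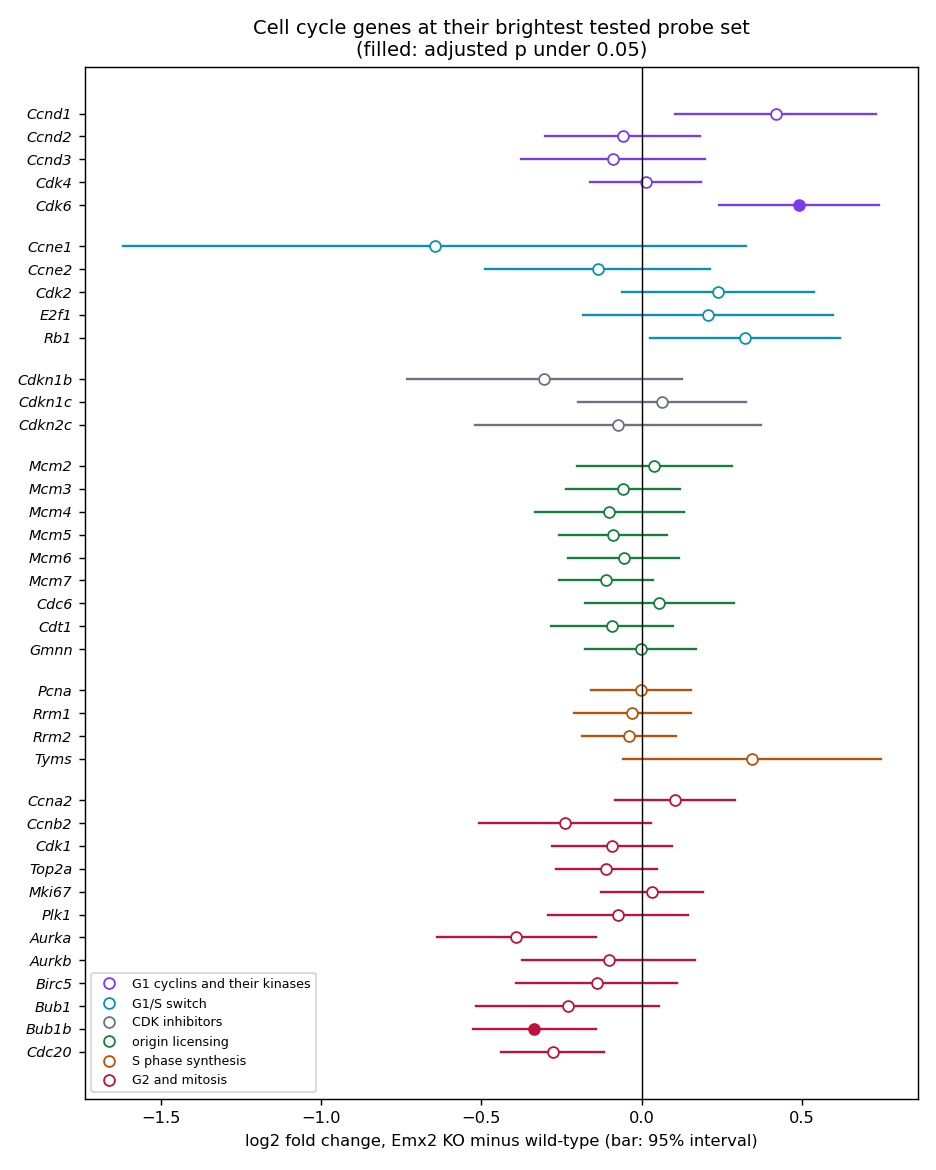
Log2 fold change (KO minus wild-type, x axis) of 38 cell cycle genes at their brightest tested probe set, with bars for the 95% interval from limma and colours for the phase group. Cdk6 (0.49) and Bub1b (−0.34), the filled points, passed the adjusted test, and the MCM genes, Pcna, Rrm1 and Rrm2 lie close to 0.

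**Figure D2:**
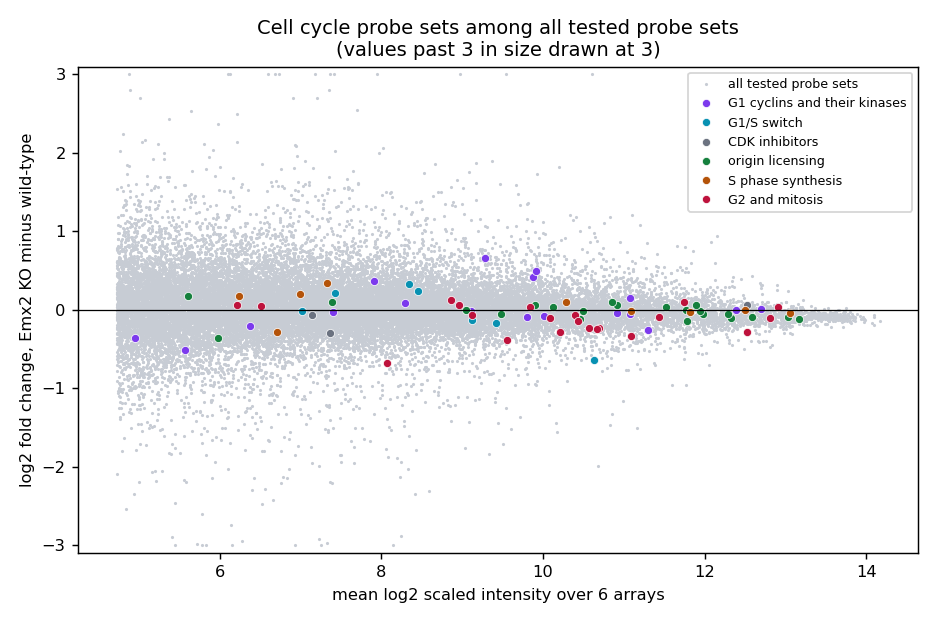
Log2 fold change (KO minus wild-type, y axis) against mean log2 scaled intensity over the 6 arrays (x axis) for all 27022 tested probe sets in grey, with the 80 cell cycle probe sets coloured by phase group. The coloured points run from −0.68 to 0.66, inside the cloud of all probe sets.

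The promoters of 4 genes are shown because their products stand for the groups compared below: the called G1 kinase, a called and a nearly called mitotic gene, and a helicase gene whose levels overlapped. Each is 250 bases before to 50 after the annotated start in RefSeq's table (GRCm38.p6), 5′ to 3′ on the gene's strand. Capitals mark CHR elements with the letters TTTGAA, or in a variant form with the letters TTCGAA. They also mark CCAAT boxes and E2F sites, the second spelled as TTTCCCGC, TTTCGCGC, TTTGCCGC or TTTGGCGC, each on either strand. In Mcm5 a pair of E2F matches overlap.
Cdk6, chr5:3343643-3343942, plus strand: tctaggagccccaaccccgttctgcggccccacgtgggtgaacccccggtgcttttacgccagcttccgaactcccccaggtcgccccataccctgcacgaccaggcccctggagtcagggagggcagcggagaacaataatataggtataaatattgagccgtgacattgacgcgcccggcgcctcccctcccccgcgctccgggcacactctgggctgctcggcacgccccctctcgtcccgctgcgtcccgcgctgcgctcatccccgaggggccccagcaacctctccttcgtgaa
Bub1b, chr2:118597961-118598260, plus strand: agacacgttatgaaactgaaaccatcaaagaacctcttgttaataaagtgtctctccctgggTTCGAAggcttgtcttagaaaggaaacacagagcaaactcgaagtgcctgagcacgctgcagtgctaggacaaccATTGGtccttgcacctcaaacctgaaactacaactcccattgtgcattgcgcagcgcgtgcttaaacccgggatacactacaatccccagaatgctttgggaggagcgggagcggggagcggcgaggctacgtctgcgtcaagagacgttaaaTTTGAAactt
Cdc20, chr4:118437294-118437593, minus strand: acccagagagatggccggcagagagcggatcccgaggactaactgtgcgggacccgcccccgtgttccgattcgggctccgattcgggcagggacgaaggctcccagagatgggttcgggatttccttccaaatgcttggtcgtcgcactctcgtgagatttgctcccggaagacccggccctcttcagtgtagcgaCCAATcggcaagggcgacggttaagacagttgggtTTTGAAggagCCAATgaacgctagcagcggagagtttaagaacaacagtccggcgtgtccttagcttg
Mcm5, chr8:75109259-75109558, plus strand: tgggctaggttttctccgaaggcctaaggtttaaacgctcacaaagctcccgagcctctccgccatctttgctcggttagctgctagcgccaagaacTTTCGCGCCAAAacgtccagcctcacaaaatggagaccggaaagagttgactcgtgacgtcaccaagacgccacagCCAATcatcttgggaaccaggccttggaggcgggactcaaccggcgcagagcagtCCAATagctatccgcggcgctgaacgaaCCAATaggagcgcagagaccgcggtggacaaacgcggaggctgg

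Positions are those of a match's first base, with 1 at the annotated start. The Cdk6 window held none of the 3 motifs. Bub1b held a CCAAT box at −113 on the opposite strand, and CHR elements at −188 and 41. Cdc20 held a CHR element at −18 between CCAAT boxes at −53 and −8, and Mcm5 held overlapping E2F matches at −153 and −149 and CCAAT boxes at −77, −22 and 7. The table held a promoter for 31 of the 40 genes, Ccnb1 included, and Ccnd1, Ccnd2, Ccne2, Ccna2, Rb1, Cdkn1c, Mcm4, Gmnn and Aurkb had none. CHR elements stood in 9 of 11 G2 and mitosis genes (81.8%) and in 2 of 7 licensing genes (28.6%), against 21.7% of the 27025 genes in the table. E2F sites stood in 1 of 11 (9.09%) and 6 of 7 (85.7%), against 2.61% of all. Among the 4 genes of DNA synthesis 0 held a CHR element and 0 an E2F site, and among 3 genes of the G1 to S switch 0 held a CHR element and 1 an E2F site. CCAAT boxes stood in 10 of 11 and 5 of 7, against 41.1%. These matches describe letters in the windows and no binding was measured.

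Cdk6, which with D-type cyclins phosphorylates the retinoblastoma protein, was the gene of the G1 group that rose. Its brightest probe set (1455287_at) read 1127, 1191 and 1125 in the KO pools, against 817, 728 and 916 in the wild-type pools. All KO pools lay above all wild-type pools. The means were 1148 ± 37.3 in KO and 821 ± 94.1 in wild-type pools (SD, n = 3 each), with log2 fold change 0.49, SE 0.12, adjusted p = 0.0281 by limma and a 1.40-fold difference. A dimmer probe set (1435338_at) read 264, 289.9 and 268 in the KO pools, against 202, 254 and 186 in the wild-type pools, again without overlap, but was not called (0.37, adjusted p = 0.27), and another lay at or near the intensity floor of 7.99 in 5 of 6 pools. With 1 pool left out the call held only without wild-type replicate 3 (adjusted p = 0.0136), and without each of the other pools the adjusted p lay between 0.0807 and 0.113. It was also lost with the values as deposited (0.243), with no filter on dim probe sets (0.143) and without limma's intensity trend (0.124).

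Ccnd1, the cyclin D that growth factor signals induce, pointed the same way at its brightest probe set without passing. It read 1016, 1169 and 1086 in the KO pools, against 774, 683 and 1026 in the wild-type pools, and the highest wild-type pool lay within the KO range (log2 fold change 0.42, SE 0.14, adjusted p = 0.141). A second probe set (1448698_at) read 603, 1028 and 770.0 in the KO pools, against 553, 424 and 514 in the wild-type pools with no overlap (log2 fold change 0.66, SE 0.18, adjusted p = 0.0563), and was called without KO replicate 1 (adjusted p = 0.0181). The dimmest gave 0.08 (adjusted p = 0.876), so the 3 probe sets of Ccnd1 differ in size of change.

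The other D cyclins and Cdk4 were not called at any probe set. Ccnd2 averaged 2123 ± 142 in KO and 2224 ± 315 in wild-type pools at its brightest probe set (95% interval of the log2 fold change −0.30 to 0.18), and the other 6 tested probe sets gave −0.36 to 0.14. KO replicate 2 was the highest of all 6 pools at 4 of the 7 Ccnd2 probe sets, reading 2988 at 1434745_at where the other pools lay between 1696 and 2409. Ccnd3 averaged 870.1 ± 86.3 in KO and 929.5 ± 133 in wild-type pools (adjusted p = 0.8). Cdk4, the partner kinase of Cdk6, averaged 6647 ± 298 in KO and 6606 ± 572 in wild-type pools with an interval of −0.16 to 0.19. A second Cdk4 probe set (1422440_at) read 2408, 2377 and 2138 in the KO pools, against 2986, 2534 and 2749 in the wild-type pools, lower in all KO pools but not called (adjusted p = 0.176).

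At the switch from G1 to S, 0 of 5 genes were called by limma, and 1, Rb1, had an unadjusted p under 0.05. Rb1, the pocket protein that holds E2F in check, read 341, 394 and 357 in the KO pools, against 289, 286 and 296 in the wild-type pools. Every KO pool was above every wild-type pool, and the change was not called (log2 fold change 0.32, SE 0.14, adjusted p = 0.243). Cdk2, the kinase of cyclins E and A, read 416, 390.5 and 341 in the KO pools, against 320.0, 320.0 and 329.7 in the wild-type pools, also without overlap (log2 fold change 0.24, SE 0.14, adjusted p = 0.422). E2f1, a transcription factor released by Rb, averaged 185 ± 16.1 in KO and 161 ± 25.2 in wild-type pools at its brighter probe set and 130.1 ± 16.9 in KO and 131 ± 8.20 in wild-type pools at the dimmer one.

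Cyclin E gave uneven readings between pools at 1 probe set, the brightest of Ccne1, which may match more than 1 transcript. The brightest Ccne1 probe set (1441910_x_at) read 877, 2785 and 841 in the KO pools, against 2656, 943 and 3143 in the wild-type pools. It was high in 1 KO and 2 wild-type pools and low in the other three, so the split crossed the genotypes (log2 fold change −0.65, SE 0.45, adjusted p = 0.518; 95% interval −1.62 to 0.32). The other Ccne1 probe set (1416492_at) showed no such split, at 692, 694 and 561 in the KO pools, against 746, 689 and 746 in the wild-type pools (adjusted p = 0.548). Ccne2 averaged 537 ± 98.0 in KO and 590.4 ± 94.5 in wild-type pools (adjusted p = 0.737).

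Inhibitors of cyclin-dependent kinases showed no called change: 0 of 3 tested genes passed limma's test and 0 had an unadjusted p under 0.05. Cdkn1b (p27) read 129, 163 and 153 in the KO pools, against 235, 162 and 159.7 in the wild-type pools, and wild-type replicate 1 alone stood clear of the rest (log2 fold change −0.30, SE 0.20, adjusted p = 0.485). Cdkn1c (p57), an imprinted inhibitor, read 5565, 5894 and 6613 in the KO pools, against 6235, 6627 and 4606 in the wild-type pools, so the wild-type values spanned the KO values (log2 fold change 0.06, SE 0.12, adjusted p = 0.852). Cdkn2c (p18) averaged 139 ± 20.7 in KO and 147 ± 30.4 in wild-type pools. Intervals for the 3 genes reached from −0.73 to 0.37. Cdkn2a, which encodes p16 and p19Arf, lay at the floor of 7.99 in all pools but KO replicate 2 (10.7) and was too dim to be tested.

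**Figure D3:**
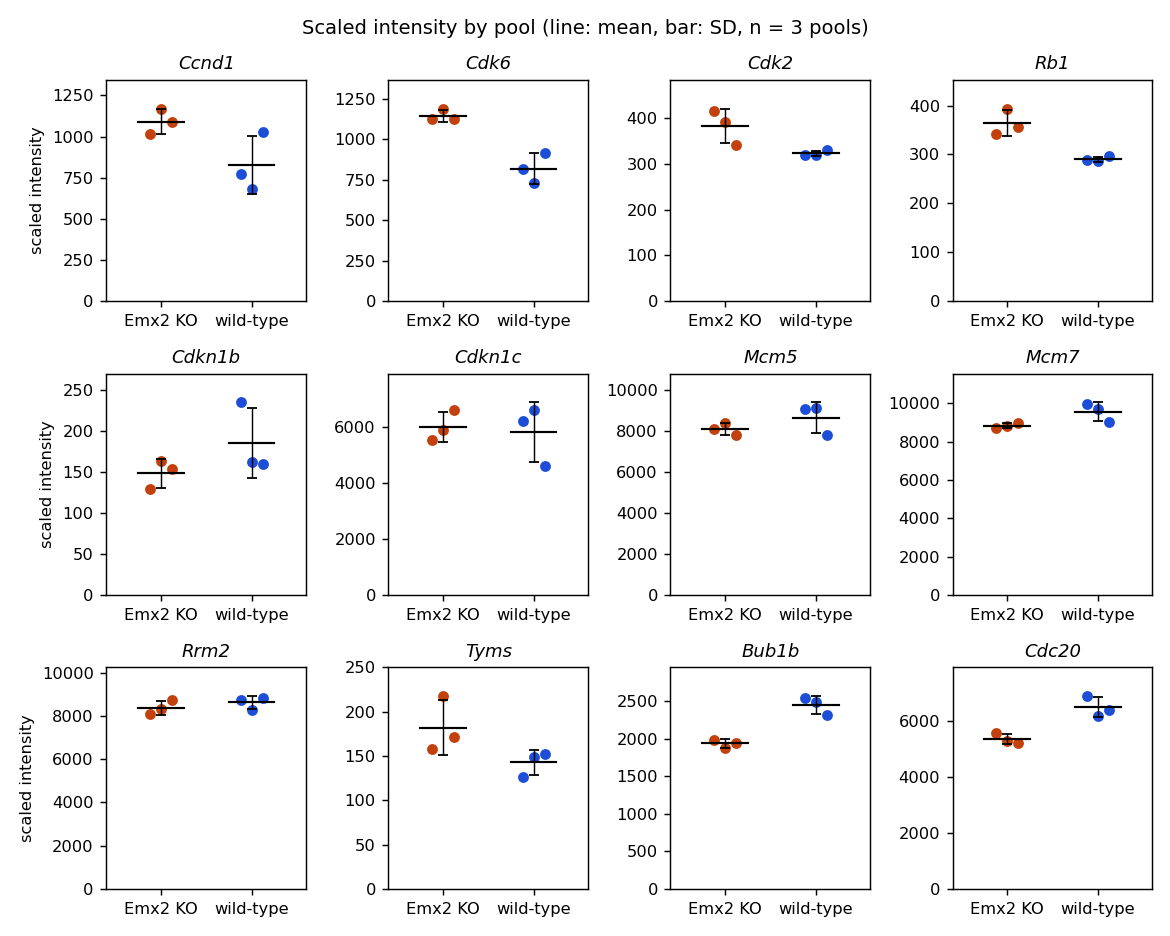
Scaled intensity (y axes, from 0) of 12 cell cycle genes at their brightest tested probe set in 3 KO (left) and 3 wild-type pools (right), with lines for the mean and bars for the SD. The groups are apart for Cdk6, Cdk2, Rb1, Mcm7, Tyms, Bub1b and Cdc20, of which Cdk6 and Bub1b were called.

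At their brightest probe sets, genes that license origins of replication were level between the genotypes. Of 9 genes 0 were called by limma and 0 had an unadjusted p under 0.05, and the log2 fold changes at the brightest probe sets lay between −0.11 and 0.05. The 95% interval stayed within 0.5 of 0 for all 9. The brightest probe set of each MCM gene may match more than 1 transcript. At their brightest probe set without this limit, Mcm2 gave −0.02, Mcm3 0.00095, Mcm4 −0.01, Mcm5 −0.12 and Mcm6 0.06, none called. Mcm7, a subunit of the helicase, had the smallest p of the group and read 8709, 8841 and 8962 in the KO pools, against 9973, 9692 and 9019 in the wild-type pools; the KO pools lay just below the wild-type pools (log2 fold change −0.11, SE 0.07, adjusted p = 0.44). Another Mcm7 probe set (1416031_s_at) gave 0.10. Mcm5 read 8109.5, 8405 and 7823 in the KO pools, against 9059, 9094 and 7805 in the wild-type pools, with overlap (log2 fold change −0.09, SE 0.08, adjusted p = 0.622).

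At their brightest probe sets the other helicase subunits overlapped between the genotypes, as did the loading factors. Mcm2 averaged 3000.3 ± 371 in KO and 2917 ± 324 in wild-type pools (SD, n = 3 each). Mcm3 averaged 3958 ± 182 in KO and 4124 ± 247 in wild-type pools, and Mcm4 averaged 4969.7 ± 509.9 in KO and 5346 ± 723 in wild-type pools. Mcm6 averaged 4922 ± 235 in KO and 5120.2 ± 336 in wild-type pools. At these probe sets the 95% intervals of the 4 subunits together ran from −0.33 to 0.28, so a change of 1.41-fold lay outside each. A dim Mcm3 probe set (1420029_at) was lower in all KO pools but not called (log2 fold change −0.36, 95% interval −0.87 to 0.14). The remaining Mcm3 probe sets gave 0.00095 to 0.10. Cdc6, which with Cdt1 loads the helicase, averaged 974 ± 37.3 in KO and 938 ± 55.7 in wild-type pools. Cdt1 averaged 5971 ± 348 in KO and 6380.2 ± 635 in wild-type pools. Gmnn (geminin), the inhibitor of Cdt1, averaged 3501 ± 154 in KO and 3509 ± 94.5 in wild-type pools, with an interval of −0.18 to 0.17.

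Among genes of DNA synthesis, 0 of 4 were called by limma, 0 had an unadjusted p under 0.05, and the 95% interval stayed within 0.5 of 0 for 3. Pcna, the sliding clamp of DNA polymerase, read 5775, 5768 and 5826 in the KO pools, against 5800.5, 5531 and 6084 in the wild-type pools, a log2 fold change of −0.0027 with an interval of −0.16 to 0.15. Rrm1 and Rrm2 encode ribonucleotide reductase, which makes deoxyribonucleotides. Rrm2 read 8094, 8339 and 8737 in the KO pools, against 8735, 8295 and 8839.8 in the wild-type pools, with overlapping groups (log2 fold change −0.04, SE 0.07, adjusted p = 0.829), and Rrm1 averaged 3567 ± 194 in KO and 3641 ± 214 in wild-type pools. This Rrm2 probe set may match more than 1 transcript, and the other Rrm2 probe sets gave −0.02 and 0.10, neither called. Tyms, thymidylate synthase, read 158, 217 and 171 in the KO pools, against 127, 149 and 153 in the wild-type pools; the groups did not overlap, but the change was not called (log2 fold change 0.34, SE 0.19, adjusted p = 0.381). Without KO replicate 2 the Tyms change was 0.21. A second Tyms probe set overlapped between the groups (adjusted p = 0.741), and 2 more were too dim to be tested.

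Genes of G2 and mitosis lay slightly lower in KO epithelium, and Bub1b was called. Of 12 genes at their brightest probe set 10 had a negative log2 fold change, with a median of −0.13, against −0.01 for all genes, of which 52.7% were negative. Counted by probe set, 14 of 21 were negative (66.7%), against 49.1% of all tested probe sets. Changes were negative also for 7 of the 9 licensing genes and for 26 of all 38 cell cycle genes (68.4%), and whether the mitotic genes differ from the others was not tested. The mitotic count was 10 of 12 also with quantile and with median scaling, and 9 of 12 with the values as deposited. For the licensing genes it was 5 of 9 with quantile scaling, 7 of 9 with median scaling and 2 of 9 as deposited. For all 38 genes these counts were 21, 27 and 14, so they moved with the scaling. Bub1b, the checkpoint kinase BubR1, read 1987, 1876 and 1948 in the KO pools, against 2541, 2485 and 2313 in the wild-type pools, with no overlap. The means were 1937 ± 56.3 in KO and 2446 ± 119 in wild-type pools (SD, n = 3 each), with log2 fold change −0.34, SE 0.09, adjusted p = 0.0493 by limma, and the KO level was 0.792 of the wild-type level. This probe set (1447363_s_at) may match more than 1 transcript. A second (1416961_at) read 1098, 1094 and 1024 in the KO pools, against 1383, 1305 and 1242 in the wild-type pools, again apart, and was not called (log2 fold change −0.29, SE 0.10, adjusted p = 0.147). The call was lost with any pool but wild-type replicate 3 left out (adjusted p = 0.116 to 0.172). It was also lost with median scaling (0.0594), no filter (0.0917), no intensity trend (0.208) and the values as deposited (0.928).

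Cdc20, the activator of the anaphase-promoting complex, and Aurka, a centrosomal kinase, came next by p. Cdc20 read 5551, 5270.0 and 5199 in the KO pools, against 6875, 6172 and 6396 in the wild-type pools, the groups being apart (log2 fold change −0.28, SE 0.07, adjusted p = 0.0538). This probe set (1439377_x_at) may match more than 1 transcript, as may the dimmest (1439394_x_at). All 3 Cdc20 probe sets gave a negative change, −0.68 at the dimmest (adjusted p = 0.139) and −0.24 at the other (1416664_at, adjusted p = 0.363). The groups overlapped at both of these. With wild-type replicate 3 left out, the brightest Cdc20 probe set passed (adjusted p = 0.0372). Aurka averaged 660.1 ± 30.4 in KO and 867 ± 64.4 in wild-type pools at its brightest probe set (log2 fold change −0.39, SE 0.11, adjusted p = 0.0772), while a dimmer one (1440129_at) gave 0.05. Bub1, a partner kinase of the checkpoint, gave −0.23 at the brighter and 0.13 at the dimmer probe set, neither called.

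The core drivers of mitosis and common markers of dividing cells were not called. Cdk1, the mitotic kinase, averaged 2685 ± 91.5 in KO and 2865 ± 165 in wild-type pools (interval −0.28 to 0.09). Ccna2, a cyclin of Cdk1 and Cdk2, averaged 3569 ± 119 in KO and 3326 ± 263 in wild-type pools. Ccnb2, a mitotic cyclin of Cdk1, averaged 1414 ± 246 in KO and 1653 ± 53.8 in wild-type pools (log2 fold change −0.24, SE 0.12, adjusted p = 0.354). The groups overlapped for these 3 genes and for Mki67, the Ki-67 proliferation antigen. Mki67 averaged 7801 ± 349 in KO and 7637 ± 482 in wild-type pools with an interval of −0.13 to 0.19. Top2a, the topoisomerase that untangles chromosomes, averaged 6909 ± 52.6 in KO and 7470.1 ± 513 in wild-type pools (log2 fold change −0.11, SE 0.07, adjusted p = 0.493), with the KO pools just below the wild-type pools. Plk1, Aurkb and Birc5 (survivin), which act at centrosomes and the inner centromere, gave −0.07, −0.10 and −0.14, none called. The Aurkb probe set may match more than 1 transcript.

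Averaged over the genes of a phase, each pool's deviation from the 6-pool mean lay between −0.33 and 0.31 on the log2 scale. The lowest was wild-type replicate 2 for the G1 to S genes, and the highest wild-type replicate 1 for the CDK inhibitors. In both of these groups, and for the DNA synthesis genes, the KO and wild-type pools overlapped. For the 12 G2 and mitosis genes the deviation was −0.02, −0.09 and −0.12 in the KO pools, against 0.09, 0.07 and 0.08 in the wild-type pools. For the 5 D cyclin and kinase genes it was 0.0030, 0.17 and 0.06 in the KO pools, against −0.03, −0.15 and −0.05 in the wild-type pools. The KO and wild-type pools were thus apart in both, in opposite directions, and with the values as deposited they overlapped in both, as they did with median scaling for the D cyclin and kinase genes. The G1 average rested on Cdk6 and Ccnd1: log2 fold changes of Cdk4, Ccnd2 and Ccnd3 were 0.01, −0.06 and −0.09, and the median of the 5 genes was 0.01. The licensing genes differed by −0.05 in the mean without overlap, and overlapped under quantile scaling and as deposited. No test was made on these averages.

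**Figure D4:**
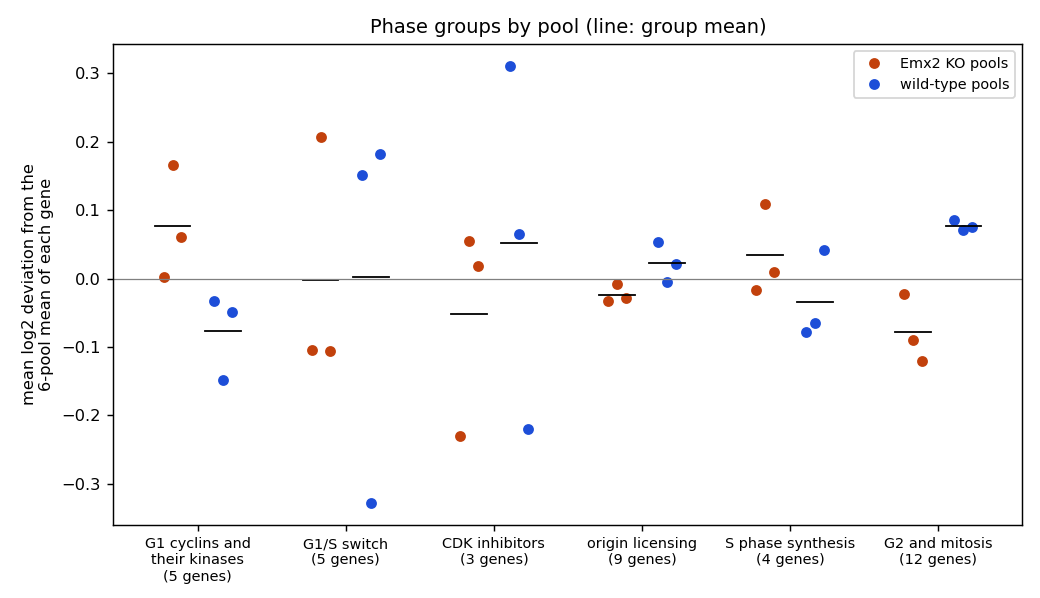
Mean log2 deviation of each pool from the 6-pool mean (y axis) over the genes of each phase group (x axis), with KO pools left and wild-type pools right and lines for the group means. The averages differ by −0.16 for G2 and mitosis genes and by 0.15 for G1 cyclin and kinase genes, of which Cdk6 and Ccnd1 carry the difference.

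Of 168 further cell cycle genes in 8 lists, 161 were tested and 7 were called (4.35%), against 5.41% of all genes by the same rule; 2 were higher and 5 lower. No gene was called by limma among 20 for origin firing, 13 for nucleotide supply, 20 of the kinetochore and spindle checkpoint and 23 CDK switches and ubiquitin ligases. In those lists 0, 1, 5 and 1 genes had an unadjusted p under 0.05, all of them lower in KO. Of all 12315 genes 2238 had such a p, 1127 of them lower. Medians of the 8 lists ran from −0.15 to 0.02. None of the 7 calls held with no filter or without the intensity trend, and only that of Myc held with the values as deposited.

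The Myc family genes, which encode growth-promoting transcription factors, moved in opposite directions. Mycn fell, reading 702, 783 and 852 in the KO pools, against 1205, 1333 and 1198 in the wild-type pools (log2 fold change −0.68, SE 0.11, adjusted p = 0.00374), and it passed with each pool left out in turn. Myc rose, reading 172, 181 and 158 in the KO pools, against 93.5, 48.4 and 114 in the wild-type pools (log2 fold change 1.08, SE 0.28, adjusted p = 0.0434). The KO pools of Myc lay above all wild-type pools, but with a pool left out the call held only without wild-type replicate 3, and the change was 0.72 without wild-type replicate 2. The call was also lost with quantile normalization (adjusted p = 0.0579). They were the 2 genes called among 19 of the list of E2F, RB and DREAM genes, which holds Myc and Mycn too.

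Among 11 tested arrest genes and further CDK inhibitors, 2 fell and 0 rose. Of all genes 2.48% were called lower and 2.93% higher. The share in this list rests on 2 calls, and its difference from all genes was not tested. Btg1, an antiproliferative gene, fell at all 3 of its probe sets, the brightest reading 2399, 2189 and 2669.9 in the KO pools, against 3516, 3129.6 and 3842 in the wild-type pools (log2 fold change −0.53, SE 0.10, adjusted p = 0.00992); without KO replicate 2 the adjusted p was 0.0514. Gadd45b, a stress-induced growth arrest gene, read 92.3, 120.1 and 113 in the KO pools, against 204, 177 and 169 in the wild-type pools (log2 fold change −0.76, SE 0.19, adjusted p = 0.0335), and with a pool left out it passed only without wild-type replicate 3. Cdkn1a (p21), named after its values were seen, averaged 92.1 ± 24.9 in KO and 122 ± 8.69 in wild-type pools (adjusted p = 0.362).

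Among 27 genes of chromosome condensation and cytokinesis 2 fell, and 25 had a negative change, with a median of −0.15, the lowest of the 8 lists. Of all genes 2.48% were called lower and 52.7% had a negative change, with a median of −0.01, and the difference was not tested. In this list the count of negative changes was 25 with quantile and with median scaling and 17 with the values as deposited. Smc1a, a cohesin subunit on the X chromosome, read 2866, 2763 and 2748 in the KO pools, against 4043, 3955 and 3543 in the wild-type pools (log2 fold change −0.46, SE 0.08, adjusted p = 0.00676), whereas a probe set of like brightness (1417830_at) gave −0.04 (adjusted p = 0.863). Ncapg, a condensin subunit, read 1516, 1469 and 1529 in the KO pools, against 2119, 1735 and 2167 in the wild-type pools (log2 fold change −0.41, SE 0.11, adjusted p = 0.0458), and with a pool left out it passed only without wild-type replicate 2. Pola1, the catalytic subunit of DNA polymerase alpha and also X-linked, was the 1 gene called among 28 polymerases and fork factors. It read 783, 997 and 974 in the KO pools, against 582, 581 and 681 in the wild-type pools (log2 fold change 0.57, SE 0.13, adjusted p = 0.0239), and with a pool left out it passed only without KO replicate 1 or wild-type replicate 3. Smc1a and Pola1 were called between pools that also differ in Xist.

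**Figure D5:**
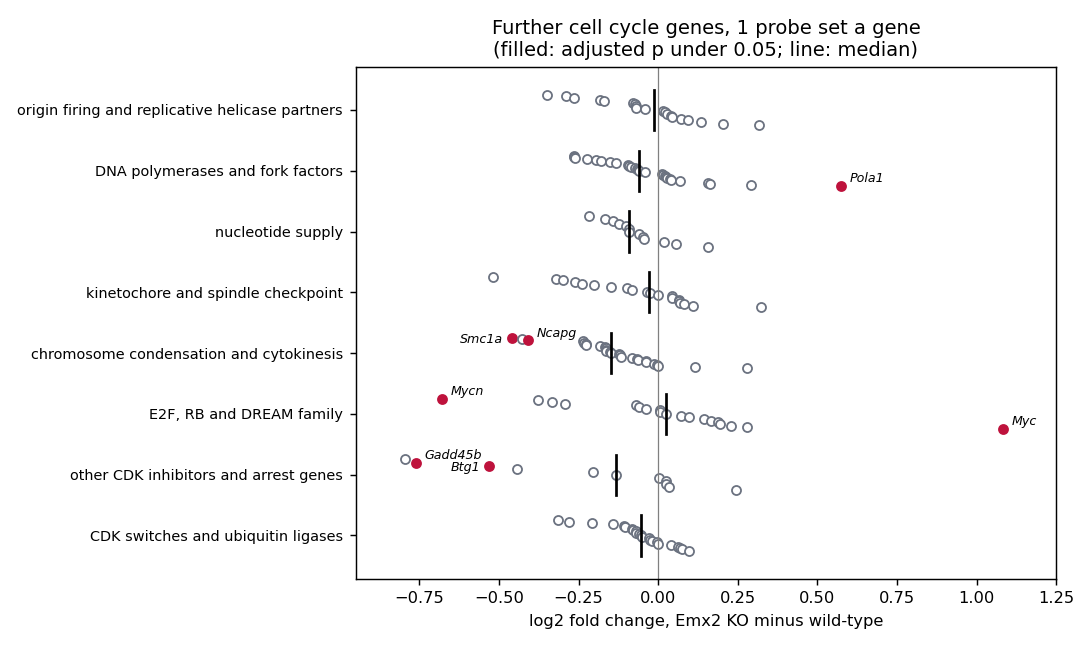
Log2 fold change (KO minus wild-type, x axis) of 161 further cell cycle genes, 1 probe set a gene, in 8 lists (rows), with lines for the list medians. The 7 filled points passed the adjusted test, Myc and Pola1 to the right and Mycn, Gadd45b, Btg1, Smc1a and Ncapg to the left of 0.

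Markers of other cell types moved with the genotypes as well: mesenchyme and endothelium were higher in the KO pools, and germ cells lower. Of 10 tested mesenchyme markers 6 rose and 0 fell, and their summed intensity ranged from 19119 to 19973 in the KO pools and from 13201 to 14791 in the wild-type pools; Osr2 was too dim to be tested. Of 6 endothelial markers 4 rose and 0 fell, with sums of 1304 to 1560 in the KO pools and 767 to 993 in the wild-type pools, while Pecam1 and Tie1 were too dim. Of 8 germ cell markers 0 rose and 2 fell, with sums of 1265 to 1572 in the KO pools and 1592 to 1679 in the wild-type pools. The sums did not overlap between genotypes for any of these 3 cell types. The captured tissue's own markers differed too: of 8 tested gonadal epithelium markers 1 rose (Krt19) and 2 fell (Nr5a1 and Krt8). Their sums were 14761 to 16446 in the KO pools and 16953 to 18546 in the wild-type pools, without overlap. Of 4 neural crest markers 1 rose and 1 fell, with sums of 276 to 364 in the KO pools and 434 to 552 in the wild-type pools, and Foxd3 was too dim. Of 2 nephric duct markers 0 were called by limma (1 at an unadjusted p under 0.05), with changes of −0.27 and −0.93. Their sums of 167 to 190 in the KO pools and 219 to 245 in the wild-type pools did not overlap, though each marker by itself did. Cdh16, Ret and Wnt9b were too dim. Of 5 primitive blood markers 0 were called (1 at an unadjusted p under 0.05), and their sums of 35458 to 36864 in the KO pools lay within the 35357 to 37032 of the wild-type pools. Whether these differences bear on Cdk6, Bub1b or the mitotic genes was not tested. The ratio of 3′ to 5′ signal, a measure of RNA length, was 14.6 to 20.2 for Actb in the KO pools and 14.9 to 19.4 in the wild-type pools, and 3.64 to 4.16 for Gapdh in the KO pools and 3.48 to 4.25 in the wild-type pools.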

How the data were processed

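Per the labels' protocols, E10.5 fetuses were cut into 30 µm sections, epithelium was captured with a laser microscope, and each pool's RNA (15 ng) went through 2 rounds of amplification. For each array the authors deposited linear intensities of all probe sets. The submitters' processing notes name GCOS 1.2; its settings are not given in the sources used here. No detection calls were used.

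Trimmed means (2% off each end) of the arrays differed by up to 1.47-fold, so each array was scaled to a common 309.2. Values under the 20th percentile (7.99) were raised to it, log2 was taken, and 64 control probe sets and the dimmest 40% (mean under 26.4) were left out. Genotypes were tested against each other in limma 3.58.1 under R 4.3.3 (intensity trend, two-sided, Benjamini-Hochberg over 27022 probe sets), a fit that was tested on simulated data. Names came from the platform's annotation. The number of arrays limits the precision; the median SE was 0.19.

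The members and lists were chosen with earlier results of these data known. Values by pool are given for genes called and for the 2 of smallest p in each phase, other genes mostly by mean or range (Ccne1 and Pcna are given by pool beyond this rule, chosen after their values were seen); up to 3 called genes per further list are named. Each pool number, shared by a KO and a wild-type array, was tried as a block. Deviations of same-numbered pools from their group means had r of −0.07, 0.04 and −0.05. With 3 pools a genotype such deviations constrain each other, so these values cannot show whether the numbers pair the pools.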

Additional observations from a re-analysis of the deposited data

How the results depend on the processing

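The count of called cell cycle probe sets, 2 of 80, was 1 with scaling to a common median, 0 with the values as deposited, 0 of 91 with no filter, 4 of 72 with the dimmest 60% left out, 1 with the replicate block, 0 without the intensity trend, 5 at an adjusted p under 0.1 and 1 of 61 without probe sets open to several transcripts. It ranged from 0 to 5 with each pool left out in turn. It stayed at 2 or 3 with array weights, quantile normalization, a pseudocount of 16 and a higher floor (40th percentile). In every one of these settings except the omission of wild-type replicate 3, where 6.25% of cell cycle and 6.24% of all probe sets were called, the share called was below that of the array. The cell cycle shares rest on 0 to 5 calls, and their differences from the array were not tested. The count over all probe sets, 1264, was 151 with no filter, 541 without the trend, 1939 at an adjusted p under 0.1 and 718 to 1687 with a pool left out. The count in the further lists, 7, was 1 with the values as deposited, 0 with no filter, 0 without the trend and 2 to 8 with a pool left out. The called tissue markers, 17 with 3 of the gonadal epithelium among them, were 2 with no filter, 10 without the trend and 10 to 16 with a pool left out. The median log2 fold change of cell cycle probe sets, −0.03, lay between −0.06 and 0.07 in all 17 settings tried, the highest with the values as deposited. Cdk6 passed in 10 of 18 and Bub1b in 7 of 17 settings, with the same direction in each. These settings include the looser threshold of 0.1 on the main fit, which any called gene passes by definition. With the replicate block Cdk6 passed, and Bub1b (adjusted p = 0.0842), Ncapg (0.0534) and Gadd45b (0.0691) did not. Whether the numbers pair the pools is not known. The causes were not tested. With 3 pools a genotype, the 95% interval reached past 1.41-fold for 13 of 38 genes.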
